A study of Homo sapiens with 6 samples.

Results

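The genes described here are immediate early and activity-regulated genes: the zinc finger transcription factors EGR1, EGR2 and EGR3, the orphan nuclear receptors NR4A1, NR4A2 and NR4A3, the synaptic protein gene ARC, and IER2, IER3 and KLF10. They were taken as every probe set whose platform annotation gives exactly 1 gene symbol, that symbol being 1 of the 10. This found 28 probe sets for 9 of the 10 genes, out of 44988 probe sets with 1 symbol for 18132 genes on the array. The expression of EGR2 is not analysed here. The cells were SH-SY5Y, a human neuroblastoma line with neuron-like, noradrenergic features. Untreated cultures gave 3 arrays, and another 3 came from cultures exposed for 24 h to manganese at 100 µM, the median lethal concentration divided by 5 per the labels. Both groups grew in serum-containing MEM and F12 medium. The replicates are labelled biological, without word on how the cultures were separated, so the p-values measure only the spread between these samples. A line such as SH-SY5Y is a tumour line in culture, and 1 exposure time was sampled.

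Immediate early genes need no new protein to be switched on. Calcium entry, growth factors and many stresses act through the ERK kinases and the factors SRF and CREB on their promoters, and the short-lived mRNAs usually rise and fall again quickly. EGR proteins bind GC-rich sites, NR4A receptors work without a known physiological ligand, and ARC protein acts at synapses, where it promotes removal of AMPA receptors. In neurons these genes serve as markers of recent activity, and NR4A2 is also needed for the dopaminergic phenotype of midbrain neurons.

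Promoter sequence was matched to the members in RefSeq (GRCh38.p14), and windows of 5 of the 10 genes were searched. The other genes, ARC, KLF10 and EGR3 among them, were left out of the search, so nothing is said of their promoters. The 250 bases before the transcription start are shown for EGR1, the member with probe sets past the threshold, and for NR4A3, a nuclear receptor of the set with none. Capitals mark matches, on either strand, to the CArG box bound by SRF, to the CRE half-site TGACG bound by CREB (CGTCA on the other strand) and to the EGR site GCGNGGGCG. The NR4A site AAAGGTCA was also searched for and was in neither window.
EGR1, chr5:138465229-138465478, plus strand: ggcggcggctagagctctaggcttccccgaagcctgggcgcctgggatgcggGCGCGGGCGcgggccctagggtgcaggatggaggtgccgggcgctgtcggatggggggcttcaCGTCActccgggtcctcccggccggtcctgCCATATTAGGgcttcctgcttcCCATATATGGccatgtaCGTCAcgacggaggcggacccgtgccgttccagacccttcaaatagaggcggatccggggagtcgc
NR4A3, chr9:99821635-99821884, plus strand: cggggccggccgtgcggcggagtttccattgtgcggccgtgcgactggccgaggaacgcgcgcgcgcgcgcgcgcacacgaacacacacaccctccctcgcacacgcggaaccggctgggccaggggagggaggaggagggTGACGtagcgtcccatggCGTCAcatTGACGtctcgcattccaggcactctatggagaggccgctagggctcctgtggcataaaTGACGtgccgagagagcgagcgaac

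The EGR1 window held 2 CArG boxes, from 105 to 96 and from 83 to 74 bases before the start, 2 CRE half-sites and 1 EGR site. The NR4A3 window held 4 CRE half-sites and none of the other motifs. No match overlapped another in these windows. Of the 35116 promoter windows of the same length in the table, 1.16% held a CArG box, 21.2% a CRE half-site, 8.41% an EGR site and 1.05% the NR4A site. An EGR2 window held 1 CArG box and 2 CRE half-sites, and the other EGR2 windows held none of the 4 motifs. The IER2 window held 1 CRE half-site, and the NR4A1 windows, of which there are 2, held none of the 4 motifs. These matches describe the letters of the windows and were not tested as sites of binding.

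Values are log2 RMA expression, and differences are manganese minus control on that scale. A level can be set against the same probe set on another array, not against another probe set. Probe sets were tested where at least 3 of the 6 arrays read above the array's own 40th percentile, which was 4.36 to 4.40. Of the 28 member probe sets 21 were tested, and of these 20 lay above that percentile on all 6 arrays and 1 on 5, so none passed through the manganese arrays alone. The 7 below it were 3 of EGR3, 1 of NR4A1, 2 of NR4A2 and 1 of NR4A3. Across all 29871 probe sets tested, 31 were higher and 1 was lower at a limma adjusted p under 0.05, a split that became 314 and 150 when the arrays were centred on housekeeping genes. Control 1 correlated least with the rest, at a Pearson r across probe sets of 0.967 to 0.981. Spike-in poly(A) RNA, read by 12 probe sets, averaged 5.83 to 6.04 on control 1 and control 3 and 7.59 to 7.75 on the other 4 arrays, so differences against control 2 alone are given beside the results.

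EGR1 rose in manganese-exposed cells, and it was the only one of the 9 measured genes with probe sets past the threshold. Of the 21 tested member probe sets 2 were called higher and 0 lower by limma, against 0.104% higher and 0.00335% lower among all probe sets tested, and at an unadjusted p under 0.05 the counts were 9 higher and 0 lower, against 5.39% higher and 7.13% lower. In 12 of the 21 every manganese array lay above every control array, against 9.4% of all probe sets tested, and in 0 every manganese array lay below, against 9.59%. These 12 came from 8 genes, with EGR3 the exception. A difference above 0.5 was seen in 7 of the 21, against 2.05% overall: 3 probe sets of EGR1, both of KLF10, and those of ARC and IER3. The median over the 21 was 0.20, beside 0.01 over all probe sets tested, and against control 2 it was 0.14 beside -0.01. In bulk RNA, more cells with a transcript and more of it per cell cannot be told apart.

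**Figure D1:**
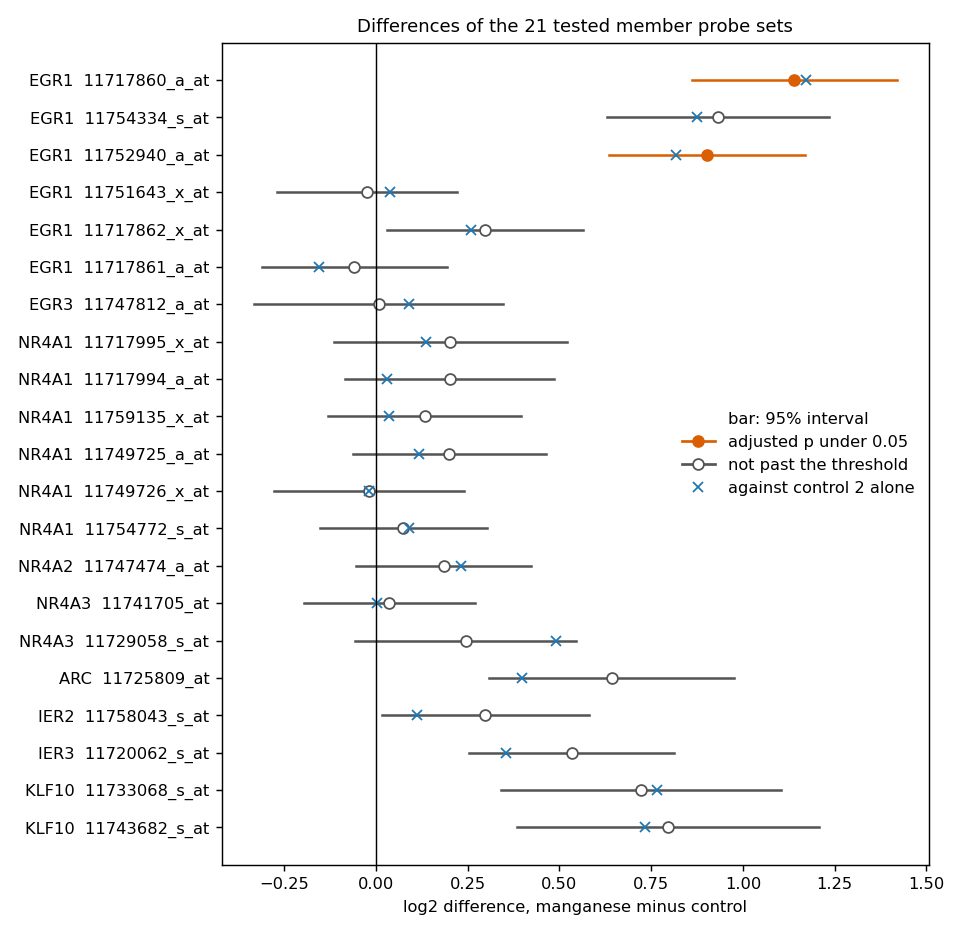
Differences of the 21 tested member probe sets, manganese minus control in log2 units, with 95% intervals from the limma fit (n = 3 arrays a group); filled orange points passed an adjusted p of 0.05 and blue crosses give the difference against control 2 alone. The 2 filled points are EGR1 at 1.14 and 0.90, and the NR4A points lie between -0.02 and 0.24.

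EGR1 encodes a transcription factor with 3 zinc fingers that is induced by growth factors, depolarisation and stress. Its probe set with the highest mean, 11717860_a_at, read 6.88, 6.85 and 6.92 on control arrays 1 to 3 and 7.93, 7.90 and 8.24 on manganese arrays 1 to 3. The controls lay within 0.07 of each other and the lowest manganese array was 0.98 above the highest control. The difference was 1.14 ± 0.12 (SE), a 2.20-fold increase from 6.88 ± 0.03 to 8.02 ± 0.19 (SD, n = 3), with a limma adjusted p of 0.0192. Against control 2, whose spike-in level was that of the treated arrays, it was 1.17, so the size did not fall, although with a single control the adjusted p was 0.274. With spike-in level as a term in the fit the difference was the same 1.17 (limma adjusted p 0.265), so this is not a separate check.

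The other 5 EGR1 probe sets differed by -0.06 to 0.93. Probe set 11752940_a_at read 6.51, 6.69 and 6.62 on the controls and 7.54, 7.36 and 7.63 on the manganese arrays, and it rose by 0.90 ± 0.12 (SE, limma adjusted p 0.0471). Probe set 11754334_s_at read 6.54, 6.70 and 6.68 against 7.47, 7.44 and 7.82, a difference of 0.93 ± 0.13 that did not pass (limma adjusted p 0.0692). In all 3 of these probe sets the groups were apart by at least 0.66. Against control 2 the differences of 11752940_a_at and 11754334_s_at were smaller, at 0.82 and 0.88. The fit with spike-in level as a term gave the same differences (limma adjusted p 0.810 and 0.907). By contrast 11751643_x_at read 6.03, 6.01 and 6.17 in controls and 6.00, 6.14 and 6.00 in manganese, with overlapping groups and a difference of -0.03 (95% interval -0.27 to 0.22). Its interval does not reach the difference of any of the 3 probe sets above.

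The 2 remaining EGR1 probe sets were dim. Probe set 11717861_a_at differed by -0.06 (-0.31 to 0.19) and 11717862_x_at by 0.30 (0.03 to 0.56, limma adjusted p 0.368), both from control means between the 43rd and 45th percentile of their arrays. The gap between 11717860_a_at and 11751643_x_at within each array was 0.74 to 0.85 on the controls and 1.76 to 2.24 on the manganese arrays. That gap was 1.16 wider in manganese. Such a widening restates the differences of the 2 probe sets, here and in the gaps given below. An exact two-sided permutation test over arrays cannot give a p under 0.1 with 3 against 3. Of 13 such gaps between 11717860_a_at and another member probe set, 12 had that smallest p (0.108 adjusted over the 13), including those to 11754334_s_at and 11752940_a_at, which were wider by only 0.21 and 0.24, so the test does not tell the probe sets apart. Which EGR1 transcripts each probe set reads was not examined. The suffix x marks probes that may also bind other sequences, and the suffix s marks probes shared between transcripts.

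**Figure D2:**
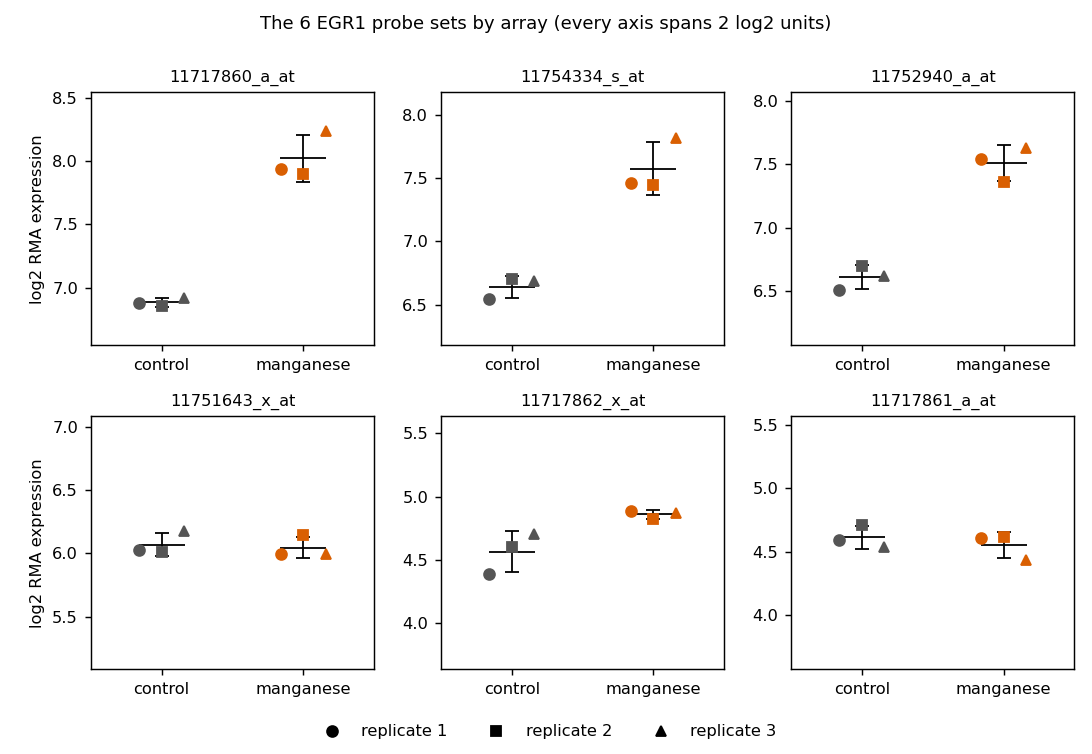
Log2 RMA expression of the 6 EGR1 probe sets on each array; points are arrays, horizontal bars the group means and whiskers the SD (n = 3), and every axis spans the same 2 log2 units. The 3 probe sets of the upper row are 0.90 to 1.14 higher in manganese, while 11751643_x_at and 11717861_a_at in the lower row have overlapping groups.

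The EGR1 calls did not hold in every fit with 1 array left out, while its 2 called probe sets kept positive differences. Over all probe sets tested, the 32 past the threshold became 36, 75 and 13 without control 1, 2 and 3. They became 7, 0 and 12 without manganese 1, 2 and 3. With 1 array left out at a time the difference of 11717860_a_at stayed between 1.03 and 1.20, but its adjusted p was 0.0302 without control 1, 0.0387 without control 2, 0.138 without control 3, and 0.111, 0.105 and 0.0932 without manganese 1, 2 and 3. Probe set 11752940_a_at ranged from 0.84 to 0.98 and stayed past the threshold only without control 2, at 0.0488; without control 1 its adjusted p was 0.0611, and without any 1 of control 3 and the manganese arrays 0.172 to 0.404. The numbers of member probe sets past the threshold were thus 1 without control 1, 2 without control 2 and 0 without any 1 of the other 4 arrays, with 7 or 8 of 21 at an unadjusted p under 0.05 in each of those fits, against 6.13% to 20.2% of all probe sets tested.

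EGR3, a close relative that EGR1-inducing signals also switch on in neurons, did not differ detectably. Its tested probe set, 11747812_a_at, read 4.73, 4.86 and 5.24 in controls and 4.88, 4.91 and 5.07 in manganese. The groups overlapped, and the difference was 0.01 (-0.33 to 0.35). Its sign turned with the arrays used, from -0.10 without control 1 to 0.15 without control 3. The 3 EGR3 probe sets below the filter differed by -0.10, 0.02 and 0.22, and 11736342_at, the last of them, had non-overlapping groups at 3.55 to 3.65 and 3.82 to 3.85, which is near background. The gap between EGR1 and EGR3 within an array was 1.68 to 2.15 on the controls and 2.99 to 3.17 on the manganese arrays, wider by 1.13.

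None of the 9 tested NR4A probe sets passed the threshold, and 0 of them had an unadjusted p under 0.05 by limma. NR4A1, also called Nur77, was read by 6 tested probe sets with differences from -0.02 to 0.20. The brightest of them, 11717995_x_at, read 7.08, 7.42 and 7.56 in controls and 7.51, 7.58 and 7.56 in manganese. Control 1 was the low array there, and control 3 overlapped the manganese arrays. Its difference was 0.20 (-0.12 to 0.52), and against control 2 it was 0.14. Of the 6 only 11749725_a_at had non-overlapping groups, at 6.24 to 6.49 and 6.53 to 6.67, a difference of 0.20 (-0.06 to 0.46, limma adjusted p 0.501).

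NR4A2, or Nurr1, had 1 tested probe set, 11747474_a_at, which read 4.57, 4.58 and 4.73 in controls and 4.77, 4.87 and 4.80 in manganese. The groups did not overlap but were 0.03 apart, and the difference of 0.18 (-0.05 to 0.42) did not pass. NR4A3, or NOR-1, had 2. Probe set 11741705_at differed by 0.04 (-0.20 to 0.27), with overlapping groups. Probe set 11729058_s_at read 4.42, 4.05 and 4.43 in controls and 4.54, 4.48 and 4.61 in manganese, with control 2 the low array, a difference of 0.24 (-0.06 to 0.55), and 0.49 against control 2. For NR4A2 and NR4A3 the levels were at or below the 55th percentile of the arrays. Within an array, the gap between EGR1 and the brightest probe set of NR4A1, NR4A2 and NR4A3 was wider in manganese by 0.94, 0.96 and 1.10.

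ARC, whose mRNA travels to active synapses, was higher in manganese on every array without passing the threshold. Its probe set, 11725809_at, read 6.73, 7.25 and 7.03 on control arrays 1 to 3 and 7.73, 7.62 and 7.58 on the manganese arrays. The controls spread over 0.52 and the manganese arrays over 0.15, and the lowest manganese array was 0.33 above control 2, the highest control. The means were 7.00 ± 0.26 and 7.64 ± 0.08 (SD, n = 3), a 1.56-fold difference of 0.64 ± 0.14 (SE, limma adjusted p 0.198). Against control 2 it was smaller, at 0.40. The fit with spike-in level as a term gave the same difference (limma adjusted p 0.9999), so this is not a separate check. The part of the spike-in levels in the ARC difference was not tested further.

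KLF10, a Krüppel-like zinc finger repressor first described as a TGF-beta inducible early gene, showed the next largest differences after EGR1. Probe set 11733068_s_at read 8.86, 8.49 and 8.25 in controls and 9.28, 9.11 and 9.37 in manganese, and 11743682_s_at read 8.75, 8.49 and 8.04 against 9.20, 9.11 and 9.34. In both, control 1 was the highest control and control 3 the lowest, and the groups were apart by 0.25 and 0.37. The differences were 0.72 ± 0.17 and 0.80 ± 0.18 (SE), or 1.65-fold and 1.74-fold, each with a limma adjusted p of 0.198. Against control 2 they were 0.77 and 0.73. The gap of EGR1 minus 11733068_s_at was -1.98 to -1.33 on the controls and -1.35 to -1.14 on the manganese arrays, a difference of 0.42 with overlapping groups.

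IER3, an inhibitor of apoptosis also known as IEX-1, and IER2, a nuclear protein of the early growth response, are each read by 1 probe set. IER3 (11720062_s_at) read 4.88, 5.09 and 4.76 in controls and 5.35, 5.45 and 5.53 in manganese. The groups were 0.26 apart, and the difference was 0.53 ± 0.12 (SE, limma adjusted p 0.198), or 0.35 against control 2. IER2 (11758043_s_at) was lower on control 1, at 8.96, than on control 2 and 3, at 9.32 and 9.13, and read 9.38, 9.49 and 9.43 in manganese. Its groups were 0.06 apart, and the difference of 0.30 ± 0.12 (limma adjusted p 0.382) shrank to 0.11 against control 2. Centring the arrays on housekeeping genes brought ARC and both KLF10 probe sets past the threshold, at adjusted p of 0.0426, 0.0118 and 0.0056, together with the 3 EGR1 probe sets that rose most. In that fit 464 of all 29871 probe sets passed, against 32 in the main fit. The median difference over all probe sets tested was 0.09 there, against 0.01 in the main fit.

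**Figure D3:**
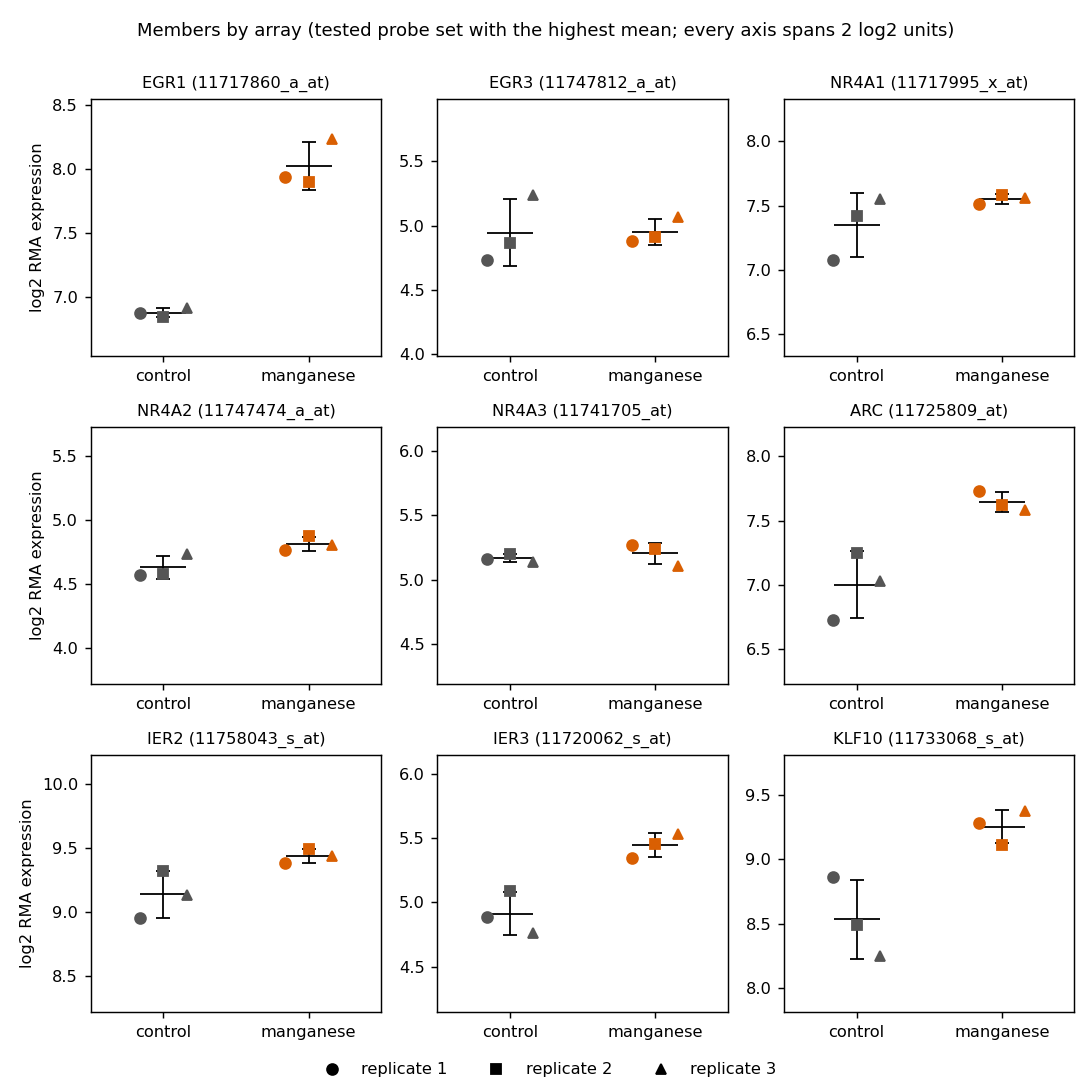
Log2 RMA expression on each array for 9 members, by the tested probe set with the highest mean; points are arrays, bars the group means, whiskers the SD (n = 3), and every axis spans 2 log2 units. EGR1 is 0.98 apart between the groups, ARC, IER3 and KLF10 are 0.25 to 0.33 apart, and the groups overlap for EGR3, NR4A1 and NR4A3.

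The genes whose profile over the 6 arrays was most like that of EGR1 were sought among all tested probe sets with 1 gene symbol, by the root mean square difference of log2 values after each probe set's own mean was subtracted. The nearest probe set of all 27410 was another of EGR1, 11754334_s_at, at 0.12, and 11752940_a_at stood at place 5. The nearest other genes were the histone gene H3C10 at 0.13, the noncoding MIR7-3HG at 0.13, the small GTPase gene RHOU at 0.14 and FOS, the AP-1 subunit, at 0.18. They were 1.12, 0.96, 1.02 and 1.16 higher in manganese, and RHOU, with an adjusted p of 0.0524, was the one that did not pass in limma. H3C10 lay below the 40th percentile on all control arrays and was tested through the manganese arrays alone; with the controls raised to that percentile its difference was 0.37. Of the members, the KLF10 probe sets stood at places 82 and 90, ARC at 174 and IER3 at 198, and the brightest probe set of NR4A1 at 3666.

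FOS, like EGR1, is a target of SRF, and its probe sets also gave unequal differences. FOS probe set 11749291_a_at rose by 1.16 (limma adjusted p 0.0471). The other FOS probe sets, 11749852_s_at and 11734658_s_at, differed by 0.27 and 0.03 and did not pass. FOS probe set 11734659_a_at read 3.97, 4.23 and 4.02 in controls, all below the 40th percentile, and 5.98, 6.25 and 6.57 in manganese, so it was tested through the manganese arrays alone (limma adjusted p 0.00425). With the controls raised to that percentile it was higher by 1.89, which is given as a lower bound. Probe set 11734658_s_at is the brightest and stands for FOS in the list below. These FOS probe sets beyond the nearest one were looked at after their values were seen.

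Other genes of the pathway were taken from fixed lists, with the brightest tested probe set for each gene. Of all 13407 genes so tested, 17 were higher (0.127%) and 0 lower at an adjusted p under 0.05, and 6.09% were higher and 7.0% lower at an unadjusted p under 0.05, with a median of 0.02 and 54.1% of the differences positive. Among 8 further members of the EGR, IER and KLF families 0 passed and 3 were higher at an unadjusted p under 0.05, with a median of 0.19. IER5L, a relative of IER2, differed by 0.86 ± 0.21 (SE, limma adjusted p 0.22), and by 0.39 against control 2. KLF11, the closest relative of KLF10, differed by 0.40, KLF9 by 0.33 and EGR4 by 0.25. Other tested probe sets of these genes went as low as 0.10 for IER5L, -0.01 for KLF11 and -0.16 for KLF9.

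Among 39 other immediate early genes 1 passed, and 15 were higher and 2 lower at an unadjusted p under 0.05. The one that passed was ATF3, a stress-inducible repressor, which rose by 1.39 (limma adjusted p 0.00465), though another of its probe sets gave 0.16. ID1, an inhibitor of differentiation, differed by 0.60, CSRNP1 by 0.67 and JUN by 0.53, all without passing. Another CSRNP1 probe set gave 0.03, and those of JUN ranged from 0.28 to 0.64. The median of the list was 0.08. Another 6 listed genes, among them NPAS4, PTGS2 and TNFAIP3, were too dim to be tested.

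None of the kinases and factors upstream passed the test. Among 28 tested genes of the ERK, SRF, TCF and CREB pathway 0 passed, and at an unadjusted p under 0.05 0 were higher and 2 were lower, with a median of -0.04. The 2 were CAMK2G, a calcium/calmodulin kinase subunit, at -0.28 and RPS6KA2, a kinase downstream of ERK, at -0.59, which was -0.10 against control 2. CREBBP at -0.38 and MAPK3, which encodes ERK1, at 0.39 followed by p, at -0.06 and 0.01 against control 2. Other CAMK2G probe sets reached 0.14, and those of RPS6KA2 and CREBBP ranged up to -0.14 and -0.18. These are mRNA levels and say nothing of kinase activity.

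None of the downstream genes passed the test. Among 13 EGR corepressor and target genes 12 were positive, against the 54.1% of all genes, with 4 at an unadjusted p under 0.05 and a median of 0.11. The 4 were TGFB1 at 0.39, GDF15 at 0.39, and the synapsin genes SYN1 and SYN2, both at 0.35, although another SYN2 probe set gave -0.31 and those of GDF15 ranged from 0.15 to 0.68. TGFB1 lay below the 40th percentile in controls, at 4.17, and was tested through the manganese arrays alone. Among 9 genes known as NR4A2 targets in dopaminergic cells 0 passed, with a median of 0.12. RET, the GDNF family receptor, was the lowest at -1.09 ± 0.18 (SE, limma adjusted p 0.112) and -0.93 against control 2, while DLK1 differed by 0.30, DDC by 0.26 and PTPRU by 0.32. The 3 RET probe sets ranged from -1.09 to -0.38 and those of DLK1 from 0.30 to 0.80.

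Among 17 TGF-beta response genes, the setting in which KLF10 was described, 0 passed, and 3 were higher and 1 lower at an unadjusted p under 0.05, with a median of -0.04. Among the higher ones was TGFB1 at 0.39, already counted among the EGR targets and tested through the manganese arrays alone. The inhibitory SMAD6 and SMAD7 differed by 0.36 and 0.37, with another SMAD6 probe set at 0.18, and the ubiquitin ligase gene SMURF2 by -0.57. Among 17 neuronal activity and ARC-linked genes 0 passed and 2 were higher at an unadjusted p under 0.05, with a median of 0.06. Those 2 were NRN1, an activity-regulated neuritin, at 0.97 ± 0.22 (SE, limma adjusted p 0.198) and SCG2, a secretogranin, at 0.43. DLG4 at 0.28 and NPY at -0.32 followed. Other probe sets of NRN1 and DLG4 gave 0.59 and as little as 0.06.

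**Figure D4:**
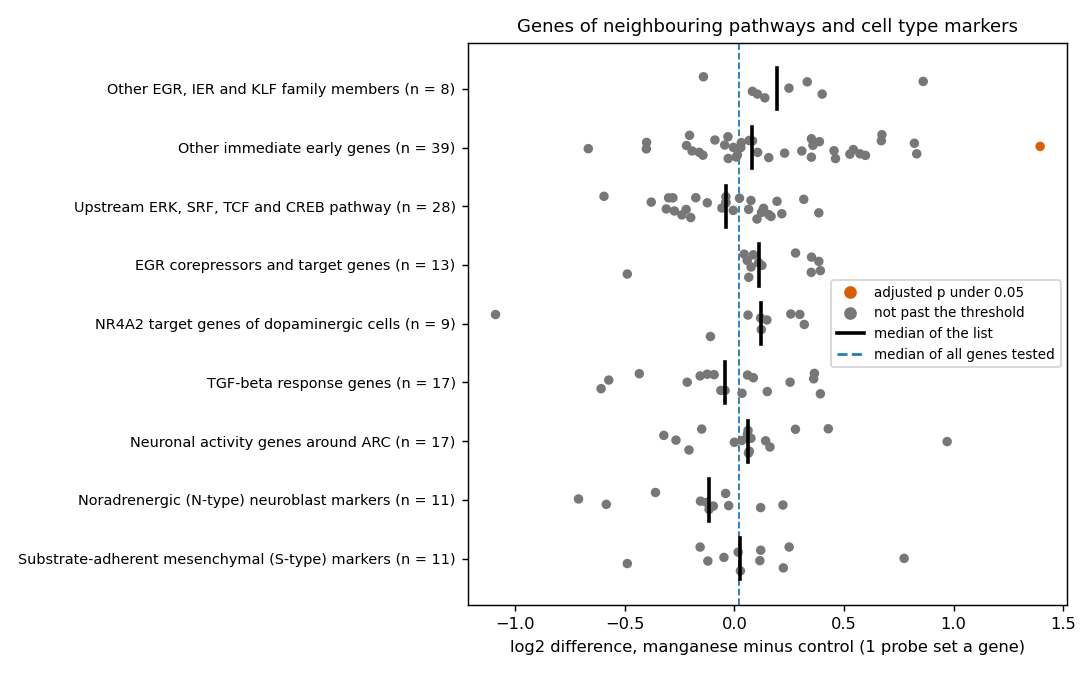
Differences in log2 units, manganese minus control, for the genes of the fixed lists (1 point a gene, its brightest tested probe set). The housekeeping genes and the Schwann, immune and epithelial markers are not shown. Black bars are list medians and the dashed line is the median of all 13407 genes tested, 0.02. ATF3 at 1.39 is the only point past the threshold, and the upstream pathway has its median at -0.04.

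The 11 tested noradrenergic neuroblast markers averaged 11.1 to 11.3 on the control arrays and 11.0 to 11.1 on the manganese arrays, with 0 past the threshold, 2 lower at an unadjusted p under 0.05 and a median of -0.12, or -0.03 against control 2. STMN2 at -0.71, ISL1 at -0.58 and TFAP2B at -0.36 were lowest, while PHOX2A differed by 0.22. Against control 2 these 4 were smaller, at -0.27, -0.26, -0.17 and 0.01. Other probe sets of ISL1 and TFAP2B went down to -0.82 and -0.72. The 11 tested markers of substrate-adherent, mesenchymal neuroblastoma cells averaged 6.77 to 6.87 and 6.85 to 6.89, with a median of 0.03, and 1 was higher at an unadjusted p under 0.05. That was VIM, the vimentin gene, at 0.77 ± 0.16 (SE, limma adjusted p 0.172), while SNAI2, ACTA2 and COL1A2 differed by 0.25, 0.22 and -0.16. COL3A1, CD44, YAP1 and LUM were too dim to be tested, while TWIST1 of the same list averaged 12.0 in both groups. The averages of different lists come from different probe sets and are not set against each other. Of 11 Schwann, immune and epithelial markers with a probe set 7 were tested, with 0 at an unadjusted p under 0.05, and PTPRC, CD14, EPCAM and CDH1 were too dim. Those of the 7 with the smallest p were KRT18 at 0.18, CD3E and PECAM1 at 0.17 and CD68 at 0.08. The part of these markers in the EGR1, ARC and KLF10 differences was not tested.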

How the data were processed

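The values deposited by the authors are log2 expression, 1 per array for each of 49395 probe sets on 6 one-colour Affymetrix arrays. Per the submitters' processing notes they come from RMA and Affymetrix Expression Console, with no version stated. RMA subtracts background, gives all arrays one intensity distribution and summarizes probes, so a shift shared by most genes is removed. Arrays give no counting depth, and their number limits the precision.

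The 102 control probe sets were left out and 29871 probe sets above the 40th percentile (of non-control probe sets) on at least 3 arrays entered a limma fit (version 3.58.1, R 4.3.3; lmFit, eBayes, group only), two-sided, adjusted by Benjamini-Hochberg over all of them. Probe sets of a gene were not merged, except for the fixed lists. Names came from the platform annotation. Of the 44988 probe sets with 1 symbol, 44961 matched RefSeq by Entrez number, 1832 others had several symbols and 2473 are unnamed here. All member probe sets were named. From each list, genes past the threshold and up to 4 with the smallest unadjusted p were named, as were the 4 genes nearest in profile to EGR1. The members, lists, tests and alternatives were chosen with earlier results of these data known. Scripts were tested on simulated data. The 18 housekeeping genes used for centring had a median difference of -0.10, led by SNRPD3 at -0.56, PPIA at -0.38, HPRT1 at 0.45 and CHMP2A at 0.20, with 0 past the threshold and 2 at an unadjusted p under 0.05, both lower.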

Additional observations from a re-analysis of the deposited data

How the results depend on the processing

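The 32 probe sets past the threshold became 19 with 1 probe set per gene, 54 at an adjusted p under 0.10, 464 with arrays centred on housekeeping genes, 5364 (2631 higher, 2733 lower) with array weights, which gave control 3 a weight of 5.16, 5 with spike-in level as a term, 7 with control 2 alone, and 0 to 75 with 1 array left out. The 2 member probe sets became 1 with a filter on the mean over all arrays, 1 probe set per gene, the intensity trend, robust estimation or the 2-fold threshold, 6 with housekeeping centring, 8 with array weights, and 0 with spike-in level as a term or control 2 alone (6 and 8 at an unadjusted p under 0.05, against 3.97% and 8.45% of all probe sets), and 0 to 2 with 1 array left out. Spike-in level as a term and control 2 alone gave the same median difference over all probe sets tested, -0.0056, so they are not separate checks. With the replicate number as a block 15 probe sets and 0 members passed. In that fit 7 members had an unadjusted p under 0.05, against 10.1% of all probe sets. The labels do not say whether same-numbered cultures were paired. Deviations of same-numbered arrays correlated at -0.29, 0.14 and -0.29, and not every array correlated best with its own number. These deviations are from each group's own mean over few arrays, so they cannot settle the pairing.

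No tested member changed sign apart from 4 near 0. EGR1 11751643_x_at was 0.055 with housekeeping centring, 0.0375 with spike-in level as a term and 0.0375 with control 2 alone (-0.074 to 0.027 with 1 array left out). EGR1 11717861_a_at was 0.023 with array weights and 0.021 with housekeeping centring (-0.10 to 0.001). EGR3 11747812_a_at was -0.26 with array weights (-0.10 to 0.15), and NR4A1 11749726_x_at was 0.061 with housekeeping centring (-0.085 to 0.046). Apart from the fewer genes or arrays some fits use, the cause was not tested. With 3 arrays a group, the 95% intervals of ARC and IER3 ran from 0.31 to 0.97 and from 0.25 to 0.81.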
